A study of Mus musculus with 19 samples.

Results

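The nuclear import and export receptors are the proteins that carry cargo through the nuclear pore, and they were examined here with the components of the Ran cycle that gives this traffic its direction. Genes were taken by symbol: those starting with Kpna, Kpnb, Ipo, Xpo or Tnpo followed by a digit (and Xpot), plus Ran, Rangap1, Rcc1, Ranbp1, Nutf2, Nxf1, Nxt1 and Cse1l. This gave 31 genes of the 24016 in the RNA table. Of these, 30 had an FPKM (fragments counted per length of transcript and per depth of library) of at least 1 in at least 1 library and were tested among 13750 genes. The remaining gene, Kpna7, had 0 FPKM with the control hairpin, 0.029 and 0.018 with the Nup153 hairpins and 0 in both libraries of neural progenitors.

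The study measured ESC, embryonic stem cells of the mouse line E14, cultured with LIF on a layer of irradiated fibroblasts, and neural progenitors (NeuP) made through embryoid bodies, Noggin and FGF2 with EGF. The ESC carried a lentiviral hairpin, under puromycin for 4 days or longer: a non-target hairpin (1 control library), or 1 of 2 hairpins against Nup153, which sits in the basket on the nuclear face of the pore (hairpins #2 and #4, 1 library each). The 2 NeuP libraries carried no hairpin, and the labels name no line for them, so the progenitors differ from the control ESC in hairpin and selection as well as in cell type. These cannot be told apart. The study also mapped Ring1B in control, knockdown and NeuP cells, Oct4 in control and knockdown ESC and Cbx7 in control ESC by ChIP-seq, and Nup153 and Oct4 in ESC by DamID, in which a fused DNA methylase marks nearby GATC sites. The labels do not say whether replicate libraries came from separate cultures, so p-values measure only the spread between these samples, which may be technical.

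As background, an import receptor binds its cargo in the cytoplasm and lets it go when RanGTP binds in the nucleus, whereas an exportin needs RanGTP to hold its cargo. Rcc1, a chromatin-bound exchange factor, loads Ran with GTP in the nucleus, and Rangap1, with Ranbp1 as its helper, brings about GTP hydrolysis in the cytoplasm. Nutf2 returns RanGDP to the nucleus. Proteins with a classical import signal use an adaptor, 1 of the importin alpha proteins encoded by Kpna genes, together with the receptor Kpnb1, and the exportin Cse1l returns importin alpha to the cytoplasm. Most mRNA leaves by another route, through the Nxf1-Nxt1 dimer. Nup153 is itself a docking site for importins at the basket, and importin alpha isoforms are known to change when ESC become neural cells.

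Each RNA library held between 24.28 and 32.15 M fragments, recovered from the step size of low FPKM values. At these depths 100.0% of those values were whole reads within 0.1 read. The depths were chosen to bring the same values nearest to whole reads, so this share is not a separate check. Nup153 was at 39.4 FPKM in the control, 20.9 and 17.4 with hairpins #2 and #4, and 12.8 and 29.1 in the NeuP replicates. Its difference with the hairpins in log2(FPKM + 1) of -1.01 ± 0.55 (SE) was not called (adjusted p = 0.897, limma). The 7 ESC markers summed to between 1497 and 1696 FPKM in the ESC libraries and to 8.0 and 7.4 in NeuP, and the 7 progenitor markers to between 9.90 and 17.0 in ESC and to 3049 and 3884 in NeuP. Sox1, a defining marker of early neural progenitors, was at 2.16 and 1.82 FPKM in NeuP. In control ESC and with hairpins #2 and #4 it was at 0.948, 1.84 and 1.41, so NeuP and ESC overlapped for this gene.

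The NeuP replicates stood apart from each other. A list of 12 cell cycle genes, chosen after the data were seen, summed to 1177.5 FPKM in control ESC, 1268.9 and 1364.3 with the Nup153 hairpins, 27.2 in NeuP replicate 1 and 712.9 in replicate 2. All 12 were lower in replicate 1 than in replicate 2. The 6 astrocyte and oligodendrocyte markers summed to 260.2 FPKM in replicate 1 and 24.3 in replicate 2, against 17.4 to 19.7 in ESC. Most of the former was Gfap, at 172.8 and 0.563 FPKM, while Mbp and Mog were at or below 0.051 in both. The astrocyte marker Aldh1l1 was lower in NeuP (6.53 and 5.16) than in ESC (11.6 to 14.9). The 6 neuronal markers summed to 240.4 and 126.2, against 11.8 to 17.4 in ESC, nearly all of it Map2, with Snap25 and Syt1 at or below 1.49. Syn1 was lower in NeuP (1.85 and 2.27) than in ESC (2.88 to 3.54). Tubb3 was at 13.1 in replicate 1 and 3.34 in replicate 2, against 8.29 to 12.7 in ESC. The 7 fibroblast markers summed to 39.0 and 95.1, against 5.84 to 9.88 in ESC, mostly Col3a1 and in replicate 2 also Postn. Col1a1 (0.375 and 1.53) and Col1a2 (0.012 and 0.235) were instead lower in NeuP than in every ESC library, at 1.82 to 4.77 and 1.11 to 2.79. The 4 endoderm markers summed to 12.4 to 22.8 in ESC and to 0.025 in each NeuP replicate. Results for NeuP are therefore given for each replicate and with each left out, and the part of these differences in the receptor results was not tested. In bulk RNA, fewer cells of a type and less RNA per cell cannot be told apart.

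**Figure D1:**
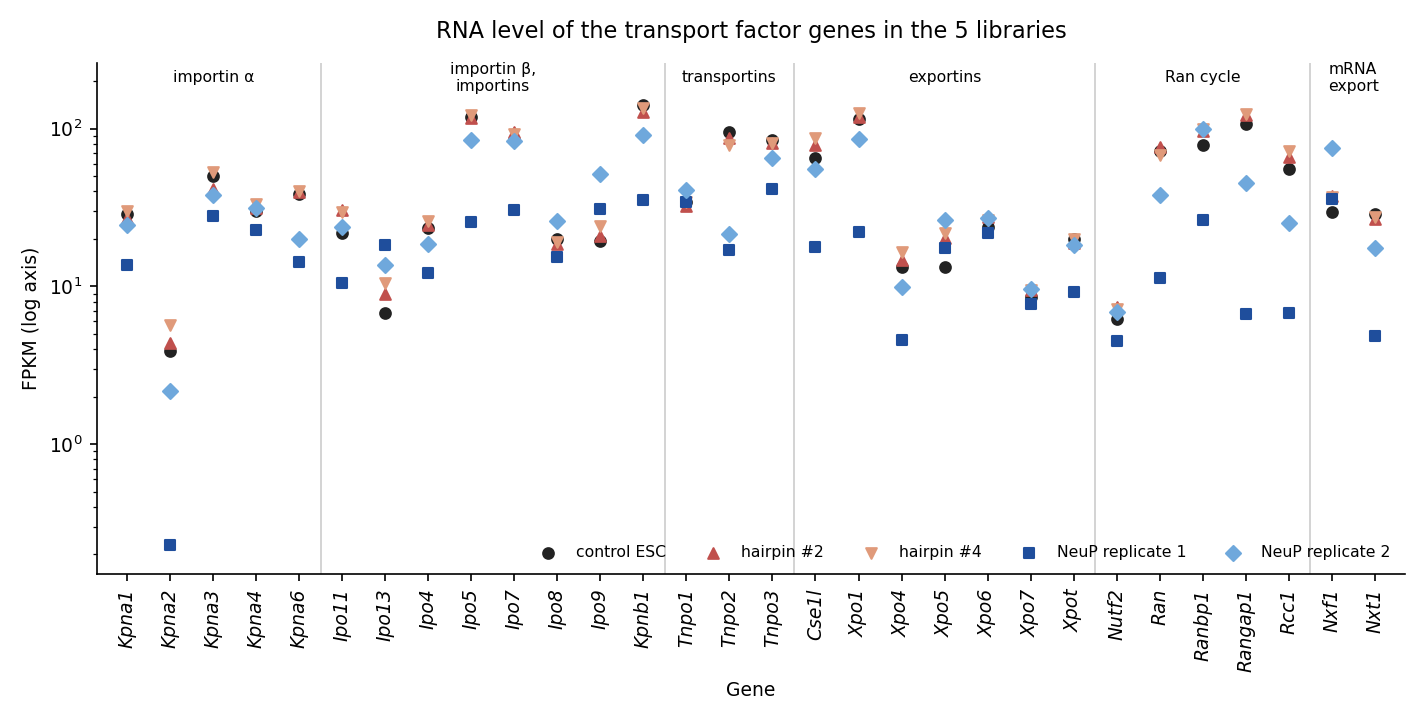
FPKM on a log axis of the receptor and Ran cycle genes in each of the 5 RNA libraries, grouped by role, with 1 point per library. Points of the 3 ESC libraries lie close together, and NeuP replicate 1 is the lowest library for most genes, as for Rangap1 at 6.71 FPKM.

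With the Nup153 hairpins no transport receptor or Ran cycle gene passed the test against control ESC. None of the 30 tested genes was called higher or lower in limma-trend on log2(FPKM + 1) with Benjamini-Hochberg adjustment (adjusted p under 0.05), and this was so for 0% of all 13750 genes in the higher and 0% in the lower direction. At an unadjusted p under 0.05 there were 0 of the 30 genes and 814 of all genes by limma-trend, and 0 of the 30 by voom on recovered reads. The median difference was 0.12 over the 30 genes and 0.08 over all genes tested, from -0.21 for Tnpo2 to 0.62 for Xpo5. Between the hairpins the median SD was 0.055 for the receptor genes and 0.062 for all genes. The fitted SE was larger, with a median of 0.43 over the receptor genes and 0.26 over all genes, because the NeuP replicates entered the same estimate of spread.

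Among the exportins, Xpo5 carries microRNA precursors out of the nucleus. It had 13.3 FPKM in the control, and 20.3 and 21.8 with hairpins #2 and #4, so both knockdown libraries lay above the control. It was the only tested receptor gene with a log2 difference of at least 0.5 in the same direction for both hairpins, where 7.08% of all genes were higher and 2.05% lower by that measure (1 and 0 of the 30 receptor genes). The difference was 0.62 ± 0.32 (SE) and was not called (adjusted p = 0.884 in limma), nor was it called under any of the alternatives. Xpo1, which exports proteins with a leucine-rich signal, had 114 FPKM with the control hairpin and 118 and 125 with the others. Cse1l was at 65.1, 78.3 and 87.6 in the same order, and Xpo4, an exportin of the translation factor eIF5A, at 13.3, 14.7 and 16.6. Over the 7 exportins the median was 0.17, against 0.08 over all genes tested. Of the 7, 6 were above 0 and 1, the tRNA exportin Xpot, was at -0.03.

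Kpnb1 and the Ipo genes gave differences from -0.11 for Kpnb1 to 0.47 for Ipo13. Ipo13, which works in both directions and imports the SUMO enzyme Ubc9, had 6.76 FPKM in control ESC and 9.01 and 10.6 with the hairpins, a difference of 0.47 ± 0.26 (SE) that was not called (adjusted p = 0.914, limma). Ipo11 differed by 0.45 ± 0.53. Kpnb1 was at 142 in the control and 127 and 136 with the hairpins, and Ipo5, a carrier of ribosomal proteins and histones, at 119, 118 and 123. For Ipo5 the control lay between the hairpins, and for Kpnb1 it lay just above them. Ipo4, another histone carrier, was at 23.5, 24.5 and 26.005. The transportins Tnpo1 and Tnpo2, which import RNA-binding proteins, were at 34.3, 32.4 and 34.5 and at 95.8, 86.9 and 78.9, and Tnpo3, the carrier of splicing factors of the SR family, differed by -0.05.

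The importin alpha genes differed by -0.08 to 0.29. Kpna1 had 28.6 FPKM in control ESC and 27.1 and 30.2 with the hairpins. Kpna3 was at 49.9, 41.7 and 53.0, Kpna4 at 30.3, 31.6 and 33.3, and Kpna6 at 38.6, 39.6 and 40.0. Kpna2 was the least abundant of those detected, at 3.89, 4.37 and 5.68. RefSeq lists a pseudogene copy of Kpna2, pseudogene copies of Nutf2 and a related gene, Rasl2-9, that carries Ran as a synonym. The sources used here do not give how reads were split between such copies, so the levels of these 3 genes are uncertain.

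In the Ran cycle the median difference was 0.21, from -0.01 for Ran to 0.32 for Rcc1 and Ranbp1. Ran had 72.6 FPKM in control ESC and 76.2 and 67.8 with the hairpins, Rcc1 at 55.4, 66.4 and 72.1, and Rangap1 at 107.5, 121.8 and 123.8. Ranbp1 was at 78.6, 96.2 and 100.0, and Nutf2 at 6.18, 7.46 and 7.17. Of these only Ran had the control between the hairpins. For mRNA export, Nxf1 was at 29.5, 37.2 and 37.0 and its partner Nxt1 at 29.0, 26.8 and 27.5, which put the hairpins above the control for one subunit and below it for the other. Neither difference (0.32 ± 0.50 and -0.09 ± 0.77) was called.

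**Figure D2:**
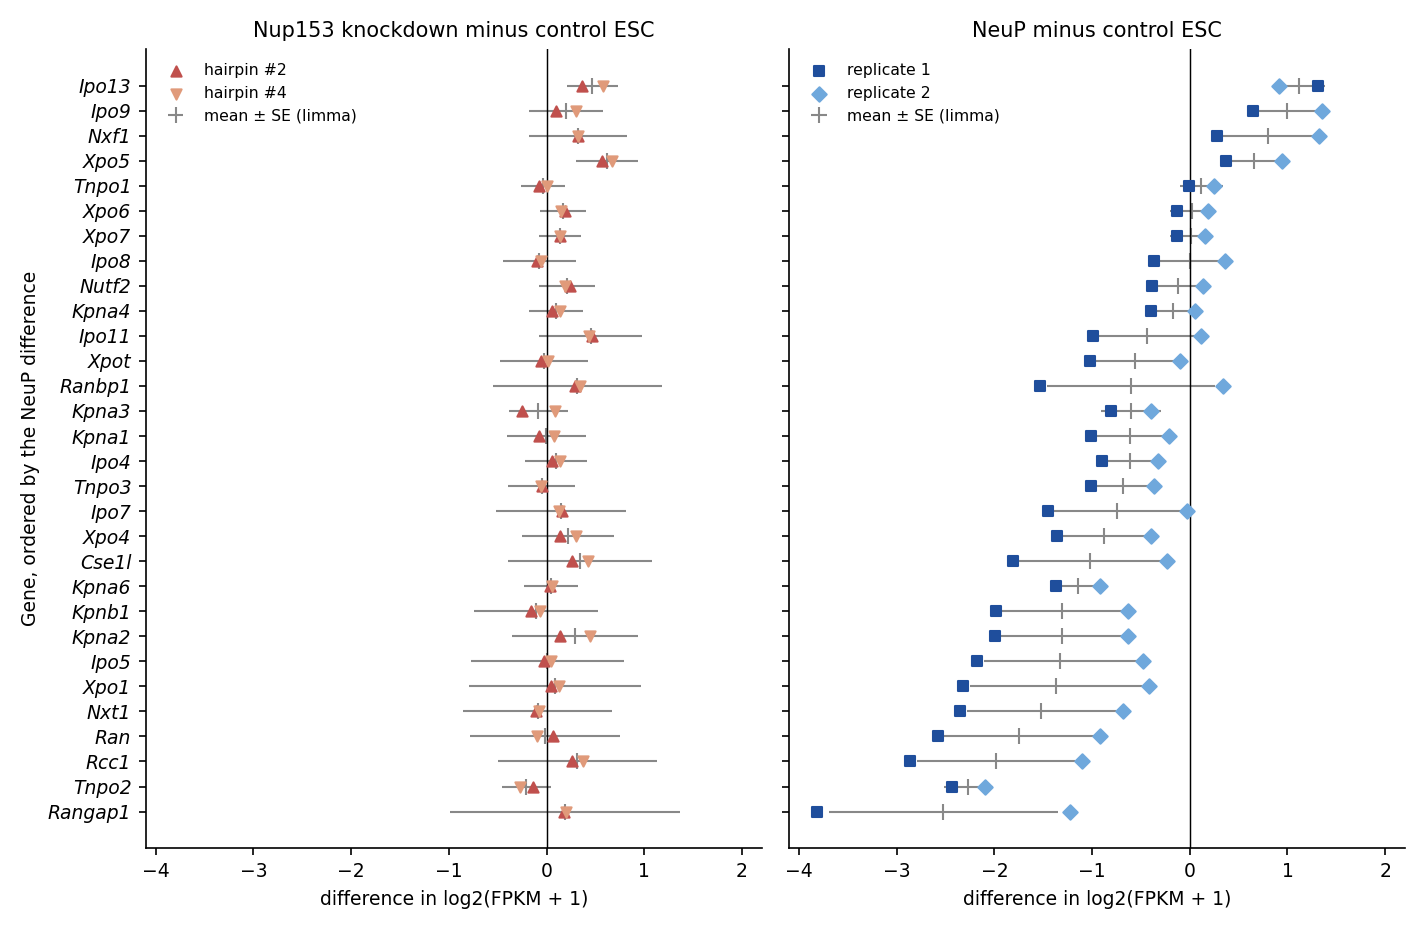
Differences from the control ESC library in log2(FPKM + 1) for the 30 tested genes, for each Nup153 hairpin at left and each NeuP replicate at right, with the group mean and its SE from limma in grey. The hairpins cluster near 0, with Xpo5 at 0.62, whereas in NeuP the mean runs from -2.52 for Rangap1 to 1.12 for Ipo13 and the replicates are far apart for many genes.

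In neural progenitors 3 receptor genes were called against control ESC: the transportin Tnpo2 and the importin alpha gene Kpna6 lower, and Ipo13 higher. That is 1 of 30 genes higher and 2 of 30 lower, or 3.33% and 6.67%, against 18.3% and 24.9% of all genes tested. The control is 1 library, so the spread came from the hairpin pair and the NeuP pair. Between the NeuP replicates Tnpo2, Kpna6 and Ipo13 differed by 0.34, 0.46 and -0.40 in log2(FPKM + 1), where the receptor median was 0.86. The median difference was -0.61 over the 30 genes and -0.26 over all genes. Of the 30, 22 were below 0, and by that median so were most of all genes. Both NeuP replicates lay below all 3 ESC libraries for 18 of the 30 genes (46.4% of all genes) and above them for 2, Ipo13 and Ipo9 (31.4% of all genes). Summed over the 30 tested genes, the receptors made up 0.443% of all FPKM in the control and 0.487% and 0.502% with the hairpins. In NeuP they made up 0.22% in replicate 1 and 0.457% in replicate 2.

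Tnpo2 was at 16.9 and 21.6 FPKM in the NeuP replicates, against 95.8 in the control, so both replicates lay far below every ESC library. Its mean was 4.98-fold lower, a difference of -2.27 ± 0.25 (SE) in log2(FPKM + 1) (adjusted p = 0.00769, limma). The related Tnpo1, whose cargo overlaps with that of Tnpo2, was at 34.1 and 40.9 in NeuP and 34.3 in the control and differed by 0.12 ± 0.22. The ratio of Tnpo2 to Tnpo1 in FPKM was 2.79 in the control, 2.68 and 2.29 with the hairpins and 0.496 and 0.527 in NeuP. Tnpo3 was at 41.5 and 65.2, against 84.3, and was not called (-0.69 ± 0.34). Tnpo2 and Nutf2 lie on chromosome 8, whose 737 tested genes had a median difference of -0.75 and -0.63 in NeuP replicates 1 and 2, against -0.29 and -0.13 for genes elsewhere. The part of this in the Tnpo2 value was not tested.

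Kpna6 was at 14.3 and 20.0 FPKM in NeuP against 38.6 in the control, below all ESC libraries, a difference of -1.14 ± 0.27 (SE; adjusted p = 0.0409, limma). Ipo13 was at 18.3 and 13.7 against 6.76, above all ESC libraries, a difference of 1.12 ± 0.26 (SE; adjusted p = 0.0395, limma). The call of Kpna6 ended with no filter on low values (adjusted p = 0.0808, limma) and with quantile normalization (0.0517), and that of Ipo13 with no filter (0.0824), while Tnpo2 kept its call under both. Set against the 2 hairpin libraries in place of the control, Tnpo2 and Kpna6 were called lower and no receptor gene higher (0 and 2 of 30, where 19.5% of all genes were higher and 31.7% lower), and Ipo13 had 0.65 (adjusted p = 0.0756). Leaving out either hairpin ended all 3 calls in limma: the adjusted p was then 0.0902 for Tnpo2, 0.204 for Kpna6 and 0.194 for Ipo13.

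The other importin alpha genes were not called in NeuP. Kpna1 was at 13.7 and 24.6 FPKM, Kpna2 at 0.230 and 2.16, Kpna3 at 28.1 and 37.8 and Kpna4 at 22.7 and 31.4. Both replicates were below every ESC library for Kpna1, Kpna2 and Kpna3, whereas for Kpna4 replicate 2 lay among the ESC libraries. All 5 tested importin alpha genes had a mean below 0, with a median of -0.61, where all genes tested had a median of -0.26.

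The makeup of the importin alpha pool was therefore followed as each gene's share of their summed FPKM. The sum was 151.2 FPKM in the control, 144.3 and 162.3 with the hairpins and 79.1 and 115.9 in NeuP. Kpna6 held 25.5% in the control, 27.4% and 24.7% with the hairpins and 18.1% and 17.3% in NeuP. Kpna4 held 20.0%, 21.9% and 20.5% in ESC and 28.8% and 27.1% in NeuP. The order of these genes was thus Kpna6 above Kpna4 in the 3 ESC libraries and Kpna4 above Kpna6 in both NeuP libraries, with a Kpna6 to Kpna4 ratio of 1.27, 1.25 and 1.20 in ESC and 0.629 and 0.637 in NeuP. Kpna3 was the largest in each library, from 28.9% to 35.5%, and Kpna1 held 17.4% to 21.2%. Kpna2 held 2.57% in the control, 3.03% and 3.50% with the hairpins and 0.29% and 1.86% in NeuP. When shares were taken over recovered reads, which longer transcripts raise, Kpna6 held 33.21% in the control and a mean of 23.7% in NeuP, and Kpna4 16.98% and 24.36%.

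**Figure D3:**
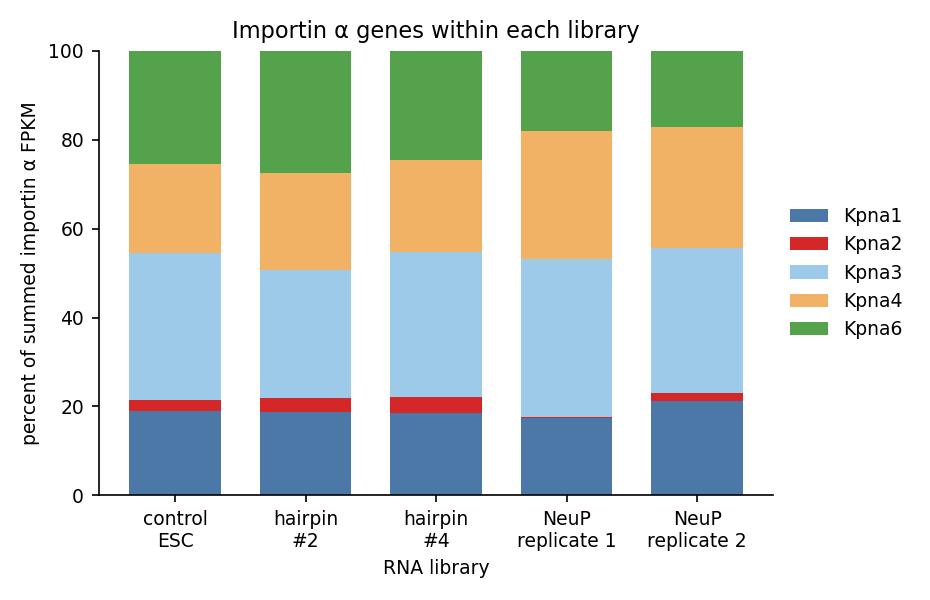
Share of each importin alpha gene in their summed FPKM, in percent, as stacked bars for the 5 RNA libraries. The Kpna6 segment is 25.5% in control ESC and 18.1% and 17.3% in NeuP, and the Kpna4 segment 20.0% against 28.8% and 27.1%.

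Among Kpnb1 and the Ipo genes, none other than Ipo13 was called in NeuP. Kpnb1 was at 35.3 and 91.5 FPKM against 142 in the control, and Ipo5 at 25.7 and 85.3 against 119, so that both replicates lay below the ESC libraries but replicate 1 much further. Their differences were -1.30 ± 0.64 and -1.33 ± 0.78. Ipo4 was at 12.2 and 18.6 against 23.5 (-0.61 ± 0.31). Ipo9, a carrier of histones, went the other way, at 31.2 and 51.3 against 19.5, with both replicates above all ESC libraries (1.00 ± 0.37, adjusted p = 0.108, limma). Ipo9 was called higher under quantile normalization. Ipo7, Ipo8 and Ipo11 had means of -0.74, 0.00 and -0.44.

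No exportin was called in NeuP. Xpo1 was at 22.1 and 85.6 FPKM against 114 in the control, and Cse1l at 17.8 and 55.4 against 65.1, both below all ESC libraries in each replicate. Xpo4 was at 4.58 and 9.87 against 13.3. Xpo5 was at 17.5 and 26.5 against 13.3, above the control in both replicates, but replicate 1 was below the knockdown libraries (0.66 ± 0.32, adjusted p = 0.173, limma). Xpo6, which exports actin with profilin, and Xpo7 had means of 0.03 and 0.01, and Xpot -0.56.

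The Ran cycle had the lowest median of the role groups, -1.74, with all 5 means below 0 and none called. The median of all genes tested was also below 0, at -0.26. Rangap1 was at 6.71 and 45.4 FPKM in NeuP against 107.5 in the control, and Rcc1 at 6.75 and 25.3 against 55.4. Ran was at 11.4 and 38.1 against 72.6. In each case both replicates lay below all ESC libraries and replicate 1 was the lower of the pair. The differences were -2.52 ± 1.17 for Rangap1, -1.98 ± 0.81 for Rcc1 and -1.74 ± 0.77 for Ran, with adjusted p = 0.163, 0.128 and 0.147 in limma. Ranbp1 was at 26.5 and 99.6 against 78.6, so that its replicates lay on either side of the control, and Nutf2 at 4.49 and 6.90 against 6.18. The subunits of the mRNA export dimer had means of opposite sign: Nxf1 was at 36.0 and 75.1 against 29.5, and Nxt1 at 4.88 and 17.6 against 29.0, with means of 0.80 ± 0.50 and -1.52 ± 0.77. Neither was called. Xpo1 FPKM was 3.88 times that of Nxf1 in the control, 3.18 and 3.38 times with the hairpins and 0.613 and 1.14 times in NeuP.

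The NeuP replicates differed from each other across the receptor genes. Replicate 2 lay above replicate 1 for 29 of 30 genes, Ipo13 being the exception, against 53.1% of all genes tested. It was at least 2-fold above, on the FPKM + 1 scale, for 13 of 30 genes, against 9.31% of all genes. The median difference of replicate 2 over replicate 1 was 0.86 in log2(FPKM + 1) for the receptor genes and 0.03 for all genes. Rangap1 had the largest, 2.59, followed by Xpo1 with 1.91, Ranbp1 with 1.87 and Rcc1 with 1.76, whereas Tnpo1 (0.26), Xpo7 (0.29), Xpo6 (0.32) and Tnpo2 (0.34) had the smallest apart from Ipo13 (-0.40). Relative to the control, the median of the receptor genes was -1.01 in replicate 1 and -0.22 in replicate 2, where all genes had -0.32 and -0.16. The cell cycle genes, which sum to 27.2 FPKM in replicate 1 and 712.9 in replicate 2, were also lower in replicate 1, and their part in the difference was not tested.

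**Figure D4:**
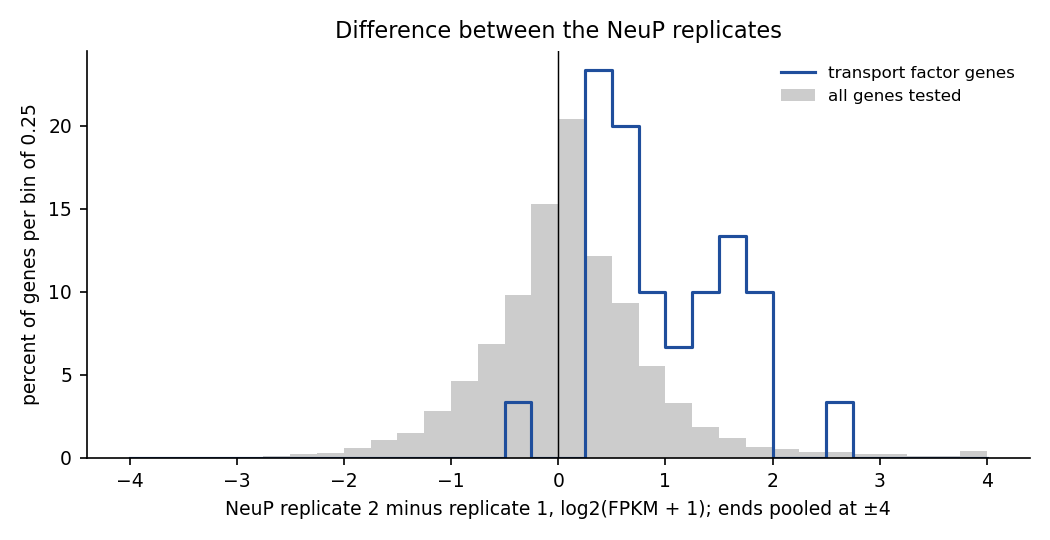
Distribution of the difference of NeuP replicate 2 minus replicate 1 in log2(FPKM + 1), in percent of genes per bin, for all 13750 tested genes and for the 30 receptor and Ran cycle genes. The distribution of all genes is centred near 0 (median 0.03), and 29 of the 30 receptor genes lie above 0 (median 0.86).

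Calls in NeuP depended on which replicate was kept. Without replicate 1, 6 receptor genes were higher (Ipo13, Ipo8, Ipo9, Nxf1, Ranbp1 and Xpo5) and 11 lower (Ipo4, Ipo5, Kpna6, Kpnb1, Nxt1, Ran, Rangap1, Rcc1, Tnpo2, Tnpo3 and Xpo1), where 34.1% and 43.1% of all genes were called. Without replicate 2, 4 were higher (Ipo13, Ipo9, Nxf1 and Xpo5) and 23 lower, where 33.6% and 48.2% of all genes were called. In these fits the spread came from the 2 hairpin libraries alone, and the lone NeuP library was assumed to vary like them. Ranbp1 and Ipo8 were called in opposite directions by the 2 fits. Ipo13, Ipo9, Nxf1 and Xpo5 lay above the control in both replicates, and the genes listed as lower without replicate 1 lay below it in both. The 2 fits shared the control library and the hairpin pair, so a call in both is not separate support. The share of all genes called in both fits was not taken.

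Other genes of the same routes were described from 2 lists. Of 28 mRNA export partners, all tested, 0 were called with the Nup153 hairpins by limma (median 0.015), and in NeuP 4 were higher and 6 lower (median -0.64), where 18.3% and 24.9% of all genes tested were called (median -0.26), so these counts were near the background. Those higher were the RNA helicase Ddx39b (1.31 ± 0.22), the adaptor Alyref2 (1.12 ± 0.16), the THO subunit Thoc7 (1.34 ± 0.35) and Eny2 (0.97 ± 0.21), a subunit of the TREX-2 complex. Those lower included the Nxf1 relatives Nxf2 (-2.72 ± 0.17), Nxf3 (-2.67 ± 0.21) and Nxf7 (-2.45 ± 0.16), while Nxf1 itself was not called (0.80 ± 0.50). The others lower were the helicase Ddx19b (-3.82 ± 0.39), Rae1 (-1.83 ± 0.38) and Thoc6 (-1.64 ± 0.19). Of 17 Ran partners and cargo adaptors 16 were tested, with 0 called by limma with the hairpins (median 0.15) and 2 higher and 4 lower in NeuP (median -0.22), again near the background of 18.3% and 24.9%. Ranbp6 (1.09 ± 0.18), a relative of Ipo5, and Ranbp9 (1.53 ± 0.35) rose, and Ranbp17 (-1.66 ± 0.16), a relative of Xpo7, Rangrf (-0.81 ± 0.17), Rcc2 (-1.36 ± 0.28) and Snupn (-1.61 ± 0.41), the import adaptor of spliceosomal snRNPs, fell.

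At their start sites, 10 of the 31 genes had a peak of at least 1 of the 9 deposited lists within 2 kb (32.3%), against 38.1% of all 24016 genes, and 21 had none. All 10 were among the 30 tested genes (33.3%), where 49.5% of all tested genes had such a peak. All coordinates of peaks are in the mm9 build. Nup153 DamID intervals covered the start of 3 genes (5.91% of all 24016 genes, and 8.91% of the 13750 tested genes, had such an interval within 2 kb). They were Ipo4 at chr14:56253158-56255658, Kpna2 at chr11:106859063-106861563 and Tnpo2 at chr8:87560206-87563490. The Oct4 DamID list had 1 gene (2.8% of all genes), Kpna6 at chr4:129348311-129350811, again over the start. Oct4 ChIP had 0 of 31 in control (0.733% of all genes) and 0 in knockdown ESC (0.712%), and Cbx7, a Polycomb subunit that reads a histone mark, had 0 (13.2%).

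The promoters of the 3 genes under a Nup153 interval are shown as examples, and those of genes with peaks of other lists are not. These 3 genes are 9.68% of the 31, near the 8.91% of the tested genes. Each line gives the 250 bases before the RefSeq start, 5′ to 3′ on the gene's strand, from RefSeq's GRCm38.p6, which is another build than that of the peaks. Capitals mark GATC, the site that the DamID methylase modifies, and CACGTG, an E-box, where these overlap as 1 run.
Ipo4 (chr14:55635685-55635934, minus strand): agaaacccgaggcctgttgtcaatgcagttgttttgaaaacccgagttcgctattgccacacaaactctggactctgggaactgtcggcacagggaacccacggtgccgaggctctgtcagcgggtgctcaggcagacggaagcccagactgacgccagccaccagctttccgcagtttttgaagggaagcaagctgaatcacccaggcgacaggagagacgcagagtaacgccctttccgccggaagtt
Kpna2 (chr11:106999526-106999775, minus strand): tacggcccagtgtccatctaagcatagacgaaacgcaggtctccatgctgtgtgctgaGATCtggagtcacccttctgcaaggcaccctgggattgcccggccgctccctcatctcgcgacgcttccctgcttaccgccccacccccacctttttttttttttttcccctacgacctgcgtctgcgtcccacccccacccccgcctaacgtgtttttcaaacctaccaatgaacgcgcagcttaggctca
Tnpo2 (chr8:85036643-85036892, plus strand): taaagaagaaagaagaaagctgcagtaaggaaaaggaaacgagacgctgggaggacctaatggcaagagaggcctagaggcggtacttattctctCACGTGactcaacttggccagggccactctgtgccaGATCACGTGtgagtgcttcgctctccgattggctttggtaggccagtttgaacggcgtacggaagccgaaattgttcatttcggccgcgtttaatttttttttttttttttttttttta
The stretch of Kpna2 holds 1 GATC and that of Tnpo2 holds 1 GATC and 2 CACGTG, with the GATC overlapping the second of them, while that of Ipo4 holds neither within the 250 bases shown. RefSeq lists a second start for Tnpo2, which is not shown. RefSeq windows were found for 25 of the 31 genes, 32 windows of 300 bases in all (250 before to 50 after the start). Searched on both strands, GATC was in 14 of these 32 and in 48.0% of all 32851 windows, CACGTG in 5 of 32 and 7.15%, and the octamer ATGCAAAT, the sequence bound by POU factors such as Oct4, in 0 of 32 and 1.74%. The Ipo4 window counts among the 14 and the 5, with 1 GATC and 1 CACGTG that are not in the bases shown. The receptor windows had a median of 27 CpG and 62.85% G and C, against 7 and 52.7% over all windows. The windows of all genes were not limited to genes tested for RNA, whereas 30 of the 31 receptor genes were tested. Values over the windows of tested genes alone were not taken, so none of these is shown to be particular to the receptors. The motif counts are matches of letters in a window and do not show binding.

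Ring1B, the core ubiquitin ligase of Polycomb repressive complex 1, was near few of these genes. In control ESC 1 of 31 had a peak (8.1% of all genes): Tnpo2, at chr8:87561192-87562074, which lies inside the Nup153 interval and 378 bp past the start. Tnpo2 was among the more abundant receptors there, at 95.8 FPKM. In the other Ring1B lists the peak nearest to the Tnpo2 start was 11.3 kb away with hairpin #2, 48.4 kb with hairpin #4 and 55.6 kb in NeuP. With hairpin #2, 4 genes had a Ring1B peak (24% of all genes and 31.4% of the tested genes), all before the start: Ipo5 at chr14:121309411-121309911, Kpnb1 at chr11:97049680-97051056, Nutf2 at chr8:108383739-108384491 and Xpo4 at chr14:58284072-58284572. With hairpin #4 there was 1 (9.24% of all genes), Nutf2 at chr8:108383581-108384081, so Nutf2 was the gene with a peak for both hairpins and none in the control. In NeuP there were 2 (10.4% of all genes): Kpna1 at chr16:35982600-35983100, before the start, and Xpo1 at chr11:23157389-23157889, within the gene and 1.3 kb past the start. Each Ring1B list came from 1 library, and the libraries differed in depth, with 4.99 M tags in the control, 30.76 and 9.95 with hairpins #2 and #4 and 33.23 in NeuP. The part of depth in these differences was not tested.

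Set beside the RNA values, the genes with a peak were as follows. In NeuP, Tnpo2 (Nup153 and Ring1B intervals in ESC) and Kpna6 (Oct4 DamID interval) were called lower, as were 24.9% of all genes tested. The other genes with a peak were not called in NeuP. Their means were -0.61 for Ipo4, -1.31 for Kpna2, -1.33 for Ipo5, -1.30 for Kpnb1 and -0.12 for Nutf2. For Xpo4, Kpna1 and Xpo1 they were -0.88, -0.61 and -1.37. Of the genes with a Nup153 interval, none was called with the Nup153 hairpins in limma: Ipo4 differed by 0.10 ± 0.31, Kpna2 by 0.29 ± 0.64 and Tnpo2 by -0.21 ± 0.25. Nutf2, with the Ring1B peaks of the knockdown, differed by 0.21 ± 0.29. The nearest Nup153 interval was 254.9 kb from the start of Ipo13 and 222.7 kb from that of Xpo5.

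**Figure D5:**
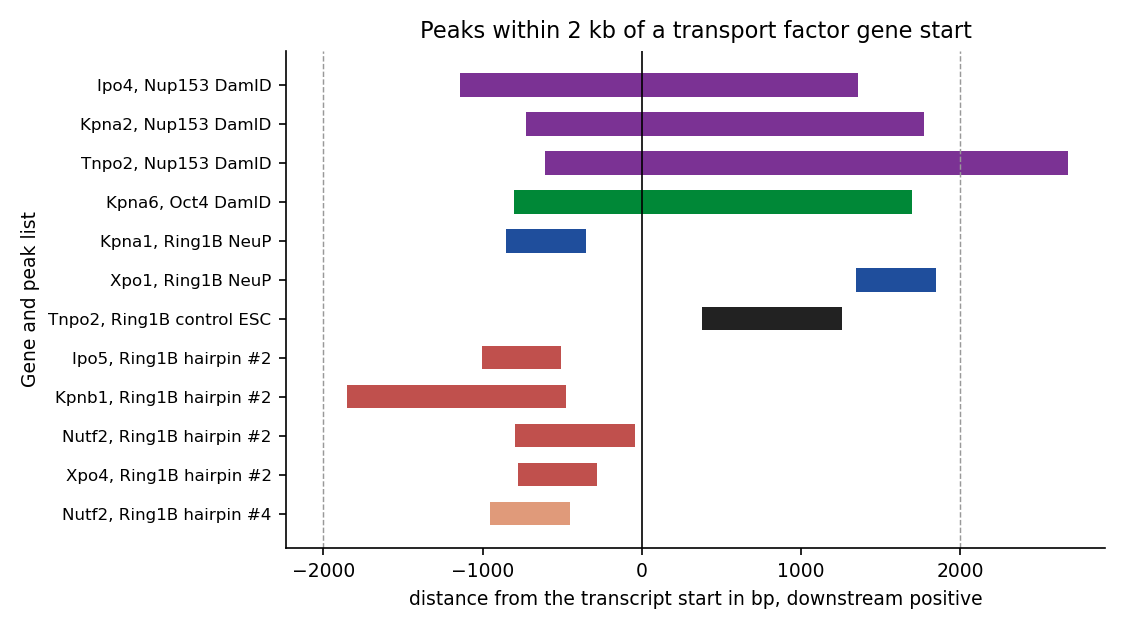
Peaks within 2 kb of the start site for the 10 receptor and Ran cycle genes that have one, drawn as bars by distance from the start site in bp along the direction of transcription and coloured by deposited list. The Nup153 DamID intervals span the starts of Ipo4, Kpna2 and Tnpo2, and the control Ring1B peak of Tnpo2 lies inside its Nup153 interval.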

How the data were processed

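RNA was measured in 5 libraries and peaks in 9 lists. The authors deposited the RNA values as FPKM, 1 transcript per gene symbol. Per the submitters' processing notes CASAVA 1.8.2, STAR 2.2.0c, Bowtie2 2.1.0, HOMER 4.6, edgeR and mm9 were used. Per the file headers, ChIP peaks came from HOMER findPeaks against an ESC IgG library, also for NeuP. The DamID lists stand for 2 replicates, and the way they were set against GFP was not given in the sources used here.

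Differences were fitted with limma 3.58.1 (R 4.3.3), limma-trend on log2(FPKM + 1), in 1 fit of all 5 libraries and 3 groups, for genes at 1 FPKM or more in at least 1 library. All tests were two-sided, adjusted by Benjamini-Hochberg and called under 0.05. The lone control library was given the spread of the other groups, and hairpins #2 and #4 were treated as replicates. The residual degrees of freedom were 2, with 1.74 added by moderation. Fold changes on this scale understate those of low genes. Fragments were recovered from the FPKM steps for voom. Peaks counted where they shared at least 1 bp with the window within 2 kb of the start (Python 3.11.15, pandas 2.3.3).

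Values in every library are given for genes that were called, that differed by 0.5 with both hairpins or that had a peak, for importin alpha genes and for 11 genes chosen whatever their values, some of which also belong to the former groups. The members and lists were chosen with earlier results of these data known, and the cell cycle list, and the listing of calls without each NeuP replicate, after these values were seen. Alternatives were the pseudocount (0.1 and 5), no filter, quantile normalization, voom, leaving out each library, the ESC libraries alone, the hairpins as reference, windows of 1 and 5 kb and peak middles. Protein sequences were not used here.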

Additional observations from a re-analysis of the deposited data

How the results depend on the processing

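Under the alternatives most values of single genes kept their direction and their side of the threshold: 532 did, 37 passed the threshold newly, 10 no longer passed it and 21 reversed. These counts pool the knockdown and the NeuP comparison. No receptor gene was called with the hairpins under any alternative, so all 37 and all 10 were in NeuP. Only Tnpo2, Kpna6 and Ipo13 had a call to lose, so the 10 were all of these genes. With no filter on low values, 55 genes of all were higher and 175 lower with the hairpins, and in NeuP 0 receptor genes were higher and 1 lower. Quantile normalization gave 2 higher and 1 lower in NeuP, and the hairpins as reference 0 higher. Leaving out 1 library at a time, receptor genes called in NeuP ranged from 0 to 6 higher and from 0 to 23 lower, and all genes from 318 to 4692 higher and from 1504 to 6629 lower. The lowest counts came without a hairpin library and the highest without a NeuP library. Within 5 kb of the start 2 genes had an Oct4 DamID interval, and within 1 kb 1 had a Ring1B peak in NeuP. By recovered reads the control shares were 17.34% for Kpna1, 1.19% for Kpna2, 31.28% for Kpna3, 16.98% for Kpna4 and 33.21% for Kpna6, and the NeuP means 24.36% for Kpna4 and 23.7% for Kpna6, since transcript length then counts.

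Reversals were of values near 0 in most cases. Leaving out hairpin #2 and then #4, the knockdown differences were 0.041 and -0.024 for Ipo5, -0.098 and 0.068 for Ran, 0.074 and -0.076 for Kpna1, 0.087 and -0.254 for Kpna3, 0.009 and -0.08 for Tnpo1, and 0.011 and -0.062 for Xpot. Leaving out NeuP replicate 1 and then 2, the NeuP differences were 0.116 and -0.992 for Ipo11, 0.364 and -0.362 for Ipo8, 0.05 and -0.398 for Kpna4, 0.138 and -0.386 for Nutf2, 0.338 and -1.536 for Ranbp1, 0.249 and -0.01 for Tnpo1, 0.185 and -0.131 for Xpo6, and 0.154 and -0.135 for Xpo7. Quantile normalization, which moved the median of all genes from 0.08 to 0.002 with the hairpins and from -0.26 to -0.056 in NeuP (receptor genes from -0.61 to -0.36), gave 0.055 for Ran and 0.013 for Tnpo3 with the hairpins and 0.075 for Kpna4 in NeuP. In NeuP, Ipo8 had -0.002 with a pseudocount of 0.1 and -0.001 with voom, and Xpo6 had -0.141 and Xpo7 -0.129 against the hairpins. For these the cause was not tested. No paired analysis was possible because the control group has 1 library and the hairpins carry no replicate number that NeuP shares. The 2 residual degrees of freedom limit what could be called.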
